A study of Mus musculus with 16 samples.

Results

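The complement genes described here are 32 listed components, regulators and receptors of the mouse complement system, taken by symbol from a bulk RNA-seq count table of 53465 genes, in which all 32 were found. The table covers 16 MC38 tumors, of 8 mice given control IgG and 8 mice given aPD-1, an antibody against the checkpoint receptor PD-1. MC38 is a colon carcinoma line of C57BL/6 mice that is used as a model of variable response to checkpoint blockade. Each female C57BL/6 mouse, aged 6 to 8 weeks, was implanted with MC38 cells under the skin of the right flank, and all 3 groups share this host and line. Antibody was given at 200 µg on days 16 and 20, and tumors were taken on day 21. The mice were enrolled at tumor volumes of 150 to 250 mm3 and were randomized between IgG and aPD-1. The study then split the aPD-1 tumors by immunostaining for CD8 T cells into 2 responders (replicates 15 and 16) and 6 non-responders (replicates 9 to 14), while replicates 1 to 8 were the IgG controls. Response was thus defined by an infiltrate in the tumor itself and was not randomized. RNA came from 100 µm sections of frozen blocks, which hold whatever cells lay in those sections.

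Complement is a cascade of plasma and tissue proteins. The recognition molecule C1q, bound by the proteases C1r and C1s, starts the classical pathway by cleaving C4 and C2, whose fragments form an enzyme, the C3 convertase. Factor B forms the convertase of the alternative pathway, and cleavage of C3 then leads to opsonization, to the anaphylatoxins C3a and C5a, and to the terminal pore of C5b to C9. The liver makes most of the plasma proteins, whereas C1q is made mainly by macrophages, and fibroblasts and other stromal cells make several components locally in tumors.

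Libraries held 26603449 to 39948866 counts per tumor (median 34105782). Levels are given as CPM, counts scaled to a common library size. Mitochondrial genes took 7.6% of counts in IgG replicate 1, 6% in non-responder replicate 9 and 5.73% in non-responder replicate 14, and 2.52 to 3.25% in the other tumors. One gene, CT010467.1, took 20.4% of counts in IgG replicate 3. The summed level of 8 colon epithelium markers was 4.91 to 12.6 CPM in the 14 non-responder and IgG tumors and 88.7 and 39.9 CPM in responder replicates 15 and 16. Epcam was at most 0.942 CPM in those 14 tumors and at 10.6 and 5.315 CPM in the responders, and Cdx2 had at most 1 count in any tumor.

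Of the 32 members, 30 passed the filter for low counts and were tested. The terminal component gene C7 and the lectin pathway protease gene Masp2 did not, with at most 25 and 2 counts in a tumor. Between responders and non-responders, 14 of 30 members were higher in responders and 0 were lower at an adjusted p below 0.05 (edgeR's quasi-likelihood test, Benjamini-Hochberg adjustment over 18251 genes). Of all genes tested, 15.4% were higher and 4.34% were lower in this comparison. With a log2 fold change above 1 also required, 13 members were higher and 0 lower, against 12.5% and 0.663% of all genes. The median log2 fold change was 0.58 over the 30 members and 0.02 over all genes. In all 14 members both responders lay above every non-responder, as they did in 21.5% of all genes, and in 0 members both lay below, against 13.2% of all genes. By role, the members that passed were 4 of 4 convertase components, 7 of 9 regulators, 2 of 6 recognition molecules and proteases, 1 of 3 terminal components and 0 of 8 receptors. The roles are small beside a share of 15.4% of all genes, and the spread over them was not tested. Cr2, a complement receptor gene outside the members, was higher in responders and is given below. In bulk tissue, more cells of a type and more RNA per cell cannot be told apart. Most of the 14 calls were lost without responder replicate 15, and the log2 fold change fell, from 3.39 to 1.69 for C4b and from 2.77 to 2.6 for Vtn. In that fit the lone responder was taken to vary like the tumors of the larger groups. The share of all genes called in it was not computed, so that the loss of calls cannot be read as particular to the members.

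**Figure D1:**
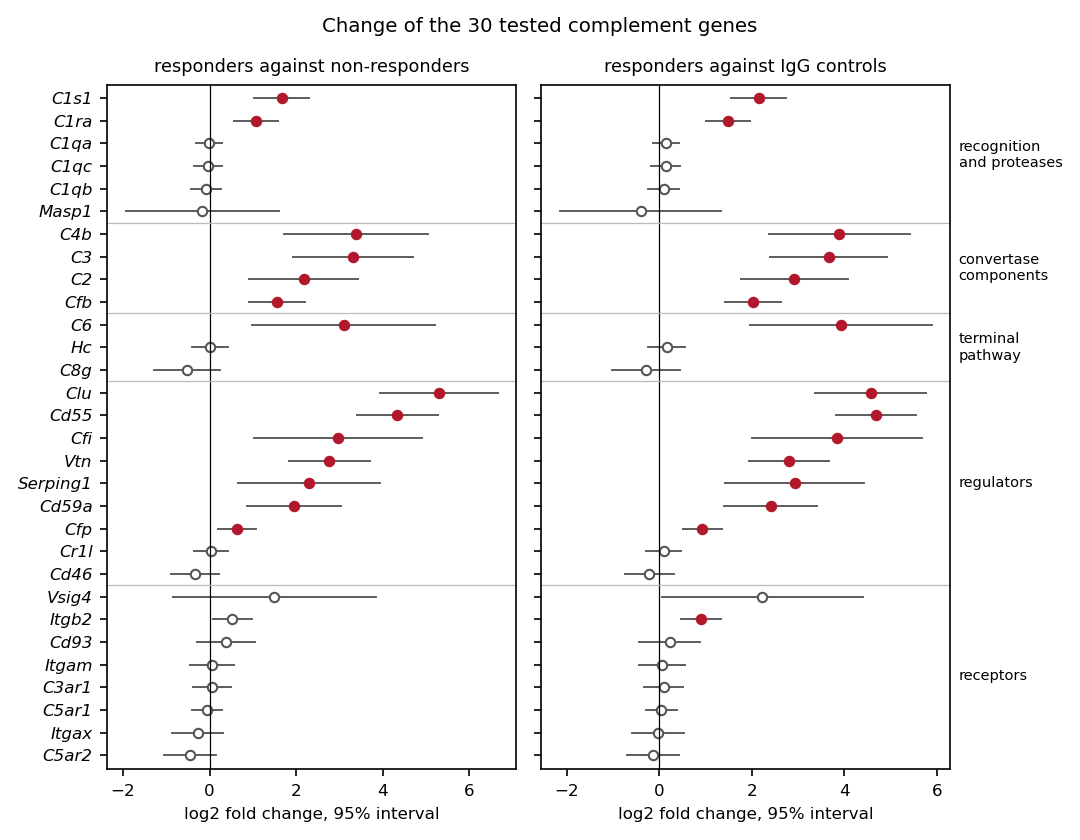
Log2 fold change (horizontal axis) with its 95% interval for the 30 tested members, grouped by role, for responders against non-responders (left) and against IgG controls (right). Filled red points passed an adjusted p below 0.05. The convertase components and most regulators lie to the right of 0, while C1qa, C1qb and C1qc lie near 0. No receptor is filled on the left, and Itgb2 is the only receptor filled on the right.

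By group means per kilobase of exon, the C1q genes were the most abundant members in each of the 3 groups, and they were nearly level across the 16 tumors. C1qa, C1qb and C1qc encode the 3 chains of C1q and lie next to each other on the minus strand of chromosome 4 in GRCm38 (C1qb from 136880129 to 136886187, C1qc from 136889804 to 136893065 and C1qa from 136895917 to 136898803). Per kilobase of exon, the level in IgG controls was 315 CPM for C1qb, 282 CPM for C1qa and 118 CPM for C1qc, and the next member, the integrin gene Itgb2, stood at 29.9 CPM per kilobase. C1qa was at 345 CPM in responder replicate 15 and 302 CPM in replicate 16, and the lowest, median and highest values were 274, 319.6 and 401 CPM in non-responders and 270.5, 292 and 325 CPM in IgG controls. C1qb was at 364 and 366 CPM in the responders, at 329, 364 and 465 CPM in non-responders and at 268, 345 and 399 CPM in IgG controls. C1qc was at 259 and 245 CPM in the responders, at 214, 255 and 311 CPM in non-responders and at 172, 234 and 251 CPM in IgG controls. For all 3 chains, both responders lay inside the range of the non-responders. In responders relative to non-responders, log2 fold changes were -0.02 for C1qa (95% interval -0.31 to 0.28), -0.08 for C1qb (-0.43 to 0.26) and -0.04 for C1qc (-0.37 to 0.29), with adjusted p from 0.787 to 0.96 in edgeR's test. A 2-fold change in either direction, which is 1 on this scale, lies outside these intervals. The ratio of C1qc to C1qb varied only from 0.622 to 0.724 over the 16 tumors and that of C1qa to C1qb from 0.744 to 1.09, with the highest value of the latter in IgG replicate 1.

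C1ra and C1s1 encode the proteases that C1q carries, and unlike the C1q chains they were higher in both responders. The genes lie side by side on chromosome 6 of GRCm38 (C1ra from 124512405 to 124523443 on the plus strand, C1s1 from 124530345 to 124542359 on the minus strand). C1s1 was at 264.5 and 149 CPM in responder replicates 15 and 16, at 37.2, 58.4 and 93.3 CPM (lowest, median and highest) in non-responders and at 29.3, 48.2 and 61.3 CPM in IgG controls. C1ra was at 126 and 85.1 CPM in the responders, at 36.8, 48.7 and 65.0 CPM in non-responders and at 26.6, 38.1 and 49.97 CPM in IgG controls. Neither gene overlapped between responders and the other 14 tumors. Against non-responders the log2 fold change was 1.67 ± 0.30 (SE, adjusted p = 0.000726 in edgeR's test) for C1s1 and 1.08 ± 0.24 (adjusted p = 0.00383) for C1ra. Without responder replicate 15 these values were 1.13 (adjusted p = 0.102) and 0.70 (adjusted p = 0.255) in edgeR's test. The ratio of C1s1 to C1qb was 0.0837 to 0.241 in the 14 non-responder and IgG tumors and 0.727 and 0.408 in responder replicates 15 and 16. The near copies C1s2 and C1rb share sequence with these genes, so that the expected counts of each pair are uncertain, but they were low, with at most 31 and 19 counts in a tumor. Masp1, a protease of the lectin pathway, was at 1.09 and 4.28 CPM in the responders and from 0.494 to 6.7 CPM in the other tumors, and its log2 fold change of -0.17 had an interval of -1.93 to 1.60. Masp2 shares 54.9% of its exon bases with Tardbp on the opposite strand, and its 0 to 2 counts gave no comparison.

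All 4 convertase components were higher in responders than in non-responders. C3, the central component of all pathways, was at 756 and 385 CPM in responder replicates 15 and 16, at 19.96, 29.9 and 124 CPM in non-responders and at 19, 36.1 and 78.6 CPM in IgG controls. C4b, which encodes complement C4, was at 540.4 and 104 CPM in the responders, at 9.42, 16 and 69.8 CPM in non-responders and at 6.75, 16.7 and 52.9 CPM in IgG controls. The responders lay above all 14 other tumors for both genes, and replicate 15 stood 5.19-fold above replicate 16 for C4b but only 1.96-fold above it for C3. Cfb, factor B of the alternative pathway, was at 247 and 189 CPM in the responders, at 44.9, 65.5 and 120.6 CPM in non-responders and at 32.8, 52.4 and 71.7 CPM in IgG controls. C2, the protease of the classical convertase, was at 38.1 and 16.1 CPM in the responders, at 1.998, 5.33 and 11.6 CPM in non-responders and at 1.08, 4.09 and 6.78 CPM in IgG controls.

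Against non-responders, the log2 fold change in edgeR's test was 3.39 ± 0.78 for C4b (adjusted p = 0.00543), 3.32 ± 0.65 for C3 (adjusted p = 0.00152), 2.17 ± 0.59 for C2 (adjusted p = 0.0148) and 1.56 ± 0.31 for Cfb (adjusted p = 0.00145). All 4 calls ended without responder replicate 15: the values were then 1.69 for C4b (adjusted p = 0.428), 2.68 for C3 (0.064), 1.36 for C2 (0.426) and 1.29 for Cfb (0.0728). C2, Cfb and C4b are neighbours in the major histocompatibility region of chromosome 17 (GRCm38, C4b from 34728380 to 34743882, Cfb from 34856374 to 34862518 and C2 from 34862604 to 34898265, all on the minus strand). C3 lies apart on the same chromosome, from 57203970 to 57228136, also on the minus strand. The annotated read-through gene Gm20547 covers 79.5% of the exon bases of Cfb and 42.8% of those of C2, and it held 0 to 3 counts per tumor. C4a, a near copy of C4b, had 13 to 41 counts per tumor, so that a division of reads between the copies concerned few reads as counted.

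**Figure D2:**
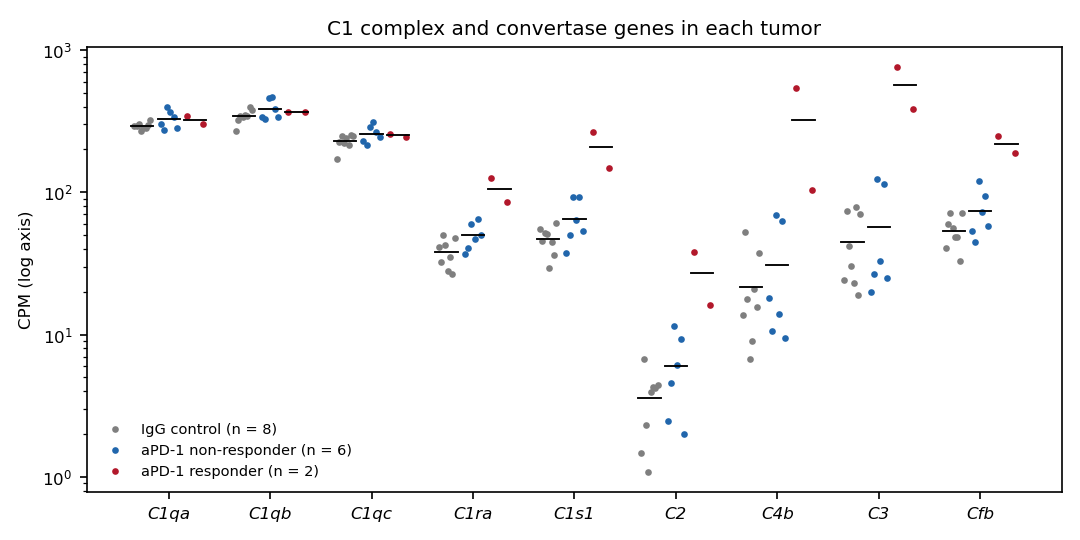
CPM on a log axis for the C1 complex and convertase genes, with 1 point per tumor and a bar at the mean of each group (8 IgG controls, 6 non-responders and 2 responders). The 3 C1q chains lie between 172 and 465 CPM in every tumor, whereas both responders lie above all other tumors for C1ra, C1s1, C2, C4b, C3 and Cfb.

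Promoter windows were available in RefSeq for 22 of the 32 members, in 25 windows. They are shown for C3 and Cd55, which passed, and for C1qb and C1qc, which did not, as the 100 bases before the RefSeq start on the minus strand of GRCm38.p6. The starts of RefSeq and GENCODE can differ, and the stretch of C1qc lies inside the GENCODE gene. Capitals mark GGGA followed after 4 bases by CC, a core of kappa B sites, and TTGCNNAA, a core of CCAAT enhancer binding sites, on either strand, and a match describes the letters only.
C3 (chr17:57228137-57228236): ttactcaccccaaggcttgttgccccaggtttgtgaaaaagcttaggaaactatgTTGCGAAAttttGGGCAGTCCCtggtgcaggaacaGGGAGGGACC
Cd55 (chr1:130462745-130462844): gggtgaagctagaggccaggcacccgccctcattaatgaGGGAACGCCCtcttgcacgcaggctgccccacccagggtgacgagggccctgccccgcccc
C1qb (chr4:136886201-136886300): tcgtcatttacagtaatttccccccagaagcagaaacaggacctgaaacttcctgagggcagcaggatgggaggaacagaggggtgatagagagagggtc
C1qc (chr4:136892915-136893014): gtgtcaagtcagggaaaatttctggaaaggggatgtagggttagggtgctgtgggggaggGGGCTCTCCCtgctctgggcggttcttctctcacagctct
In the stretch of C3, both kinds of match stand within the bases nearest the start, and the stretch of C1qc holds a kappa B match. That of C1qb holds neither, but its window has overlapping kappa B matches farther upstream. Over whole windows, the kappa B letters were found in 6 of 22 members and in 22.9% of all 27025 genes with a window, and TTGCNNAA in 4 of 22 members and 12.2% of genes. The gamma activated site letters TTCNNNGAA were found in 4 of 22 members (C1ra, C7, Masp2 and Vtn) and 9.6% of genes, and GAAA repeated after 2 bases, the core of interferon stimulated response elements, in 3 of 22 (Cd59a, Cd46 and Vtn) and 4% of genes.

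Among the terminal components, C6 was the single gene that passed. It was at 14.6 and 4.5 CPM in responder replicates 15 and 16, at 0.102, 0.373 and 3.14 CPM in non-responders and at 0.06, 0.341 and 2.41 CPM in IgG controls. The log2 fold change against non-responders was 3.10 ± 1.00 (SE, adjusted p = 0.0384 in edgeR's test), and the call was lost when non-responder replicate 9, 10, 12 or 14 or responder replicate 15 was left out. Without replicate 15 the value was 1.95. C7, which neighbours C6 on chromosome 15, was at 0.739 and 0.225 CPM in the responders and at most 0.181 CPM in the other tumors, and was not tested. Hc, the gene of C5, lay within 4.5 to 7.3 CPM in all tumors, with a log2 fold change of 0.01 (95% interval -0.41 to 0.44). C8g, a chain of C8, was at 0.71 and 0.787 CPM in the responders and from 0.631 to 1.49 CPM in the others, with a log2 fold change of -0.51 (-1.27 to 0.25).

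Regulators held the largest fold changes of all members. Cd55, which encodes the decay accelerating factor that takes C3 convertases apart on cell surfaces, was at 91.8 and 38.8 CPM in responder replicates 15 and 16, at 1.8, 2.565 and 5.5 CPM in non-responders and at 1.35, 2.21 and 4.28 CPM in IgG controls. Clu, the gene of clusterin, which binds terminal complexes in fluid, was at 293 and 95.6 CPM in the responders, at 2.9, 4.18 and 7.53 CPM in non-responders and at 3.01, 5.72 and 27.6 CPM in IgG controls. Vtn, the gene of vitronectin, another binder of terminal complexes, was at 11.97 and 10.4 CPM in the responders, at 0.962, 1.26 and 3.32 CPM in non-responders and at 0.746, 1.61 and 2.62 CPM in IgG controls. For these 3 genes the lower responder stood well clear of the highest other tumor, and the highest other value of Clu was that of IgG replicate 6. Their log2 fold changes against non-responders were 4.34 ± 0.45 for Cd55 (adjusted p = 2.78e-06), 5.30 ± 0.64 for Clu (adjusted p = 1.57e-05) and 2.77 ± 0.44 for Vtn (adjusted p = 0.00023) in edgeR's test. Without responder replicate 15 the edgeR calls held, at 3.52 (adjusted p = 0.000342), 4.21 (0.00125) and 2.6 (0.00868). No other member passed in that fit.

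Serping1 encodes the C1 inhibitor, which inactivates C1r and C1s. It was at 254.5 and 104 CPM in the responders, at 6.54, 29 and 84.4 CPM in non-responders and at 5.43, 20.8 and 48.4 CPM in IgG controls. Its values spread 12.9-fold among the non-responders, and its log2 fold change of 2.30 ± 0.77 had an adjusted p of 0.0461 in edgeR's test. That call ended when non-responder replicate 9, 10, 12 or 14 or either responder was left out. Cd59a, an inhibitor of the terminal pore at the cell surface, was at 10.1 and 2.9 CPM in the responders, at 0.779, 1.57 and 2.77 CPM in non-responders and at 0.36, 1.4 and 2.05 CPM in IgG controls. Replicate 16 thus lay just above the highest non-responder, and the log2 fold change of 1.96 ± 0.51 (adjusted p = 0.0119 in edgeR's test) fell to 0.72 without replicate 15 (adjusted p = 0.679).

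Cfi, the protease that cleaves C3b and C4b, was at 2.51 and 0.703 CPM in the responders, at 0.0608, 0.138 and 0.576 CPM in non-responders and at 0, 0.0702 and 0.383 CPM in IgG controls, with at most 85 counts in a tumor. Its log2 fold change was 2.97 ± 0.92 (adjusted p = 0.0306 in edgeR's test), and the call ended when non-responder replicate 9, 10, 11 or 13 or responder replicate 15 was left out. Without replicate 15 it was 1.71. Cfp, the gene of properdin, which stabilizes the alternative convertase and so acts in the other direction, was at 106.6 and 74.9 CPM in the responders, at 42.8, 58.7 and 71.7 CPM in non-responders and at 34.7, 47.5 and 63.8 CPM in IgG controls. Its change was small, at 0.63 ± 0.21 (adjusted p = 0.0423 in edgeR's test), and was not called when non-responder replicate 9, 10 or 14 or responder replicate 15 was left out. Without replicate 15 it was 0.29. Cr1l, which encodes the mouse convertase inhibitor Crry, was at 86.8 and 88.4 CPM in the responders, at 70.5, 84.4 and 97.7 CPM in non-responders and at 52.8, 83.95 and 107 CPM in IgG controls. The 95% interval of its log2 fold change was -0.36 to 0.43. Cd46, a cofactor of factor I, was at 7.04 and 6.92 CPM in the responders and from 6.39 to 12.5 CPM in the others, with an interval of -0.89 to 0.22.

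**Figure D3:**
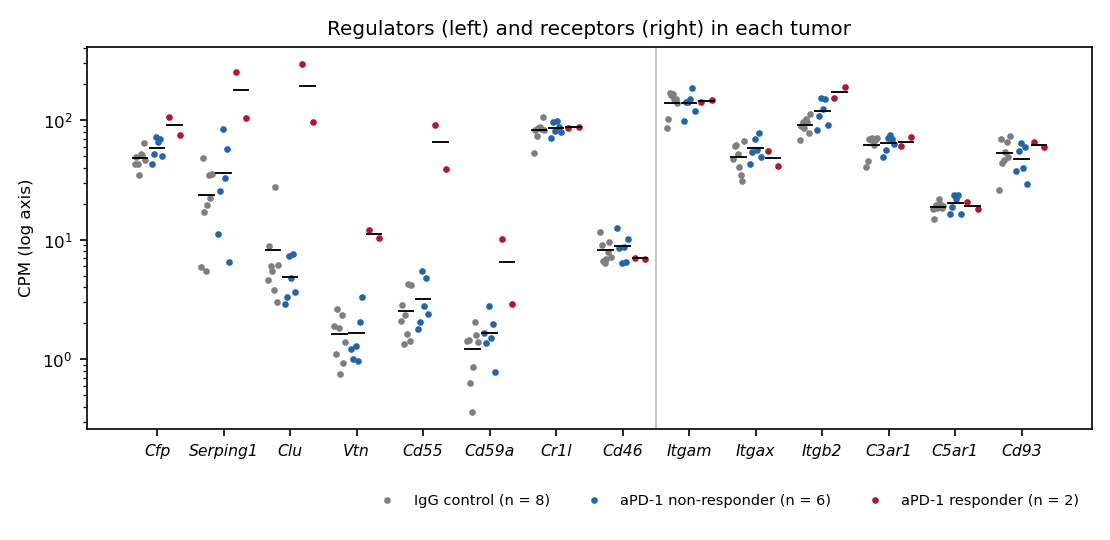
CPM on a log axis for 8 regulators (left) and 6 receptors (right), with 1 point per tumor and a bar at the mean of each group (8 IgG controls, 6 non-responders and 2 responders). Both responders lie above all other tumors for Cfp, Serping1, Clu, Vtn, Cd55 and Cd59a, and among the other tumors for Cr1l, Itgam, Itgax, C3ar1, C5ar1 and Cd93.

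None of the 8 receptor genes passed between responders and non-responders. C3ar1, the receptor of C3a, was at 60.4 and 72 CPM in responder replicates 15 and 16, at 49.1, 66.2 and 74.9 CPM in non-responders and at 40.9, 67.8 and 70.7 CPM in IgG controls. C5ar1, the main receptor of C5a, was at 20.5 and 18.1 CPM in the responders and from 14.96 to 23.8 CPM in the others. C5ar2, the other C5a receptor, was at 3.67 and 2.17 CPM in the responders and from 2.49 to 4.88 CPM in the others. The 95% interval of the log2 fold change was -0.39 to 0.49 for C3ar1, -0.41 to 0.29 for C5ar1 and -1.04 to 0.14 for C5ar2. Itgam and Itgax pair with Itgb2 to form complement receptors 3 and 4, which bind iC3b on myeloid cells. Itgam was at 143 and 149 CPM in the responders, at 98.7, 142 and 186 CPM in non-responders and at 85.8, 150.0 and 168 CPM in IgG controls. Itgax was at 55.5 and 41 CPM in the responders, at 42.8, 55.4 and 77.6 CPM in non-responders and at 31.1, 49.6 and 67.15 CPM in IgG controls. Itgb2, whose product also pairs with the T cell integrin chain Itgal, was at 152 and 189 CPM in the responders, at 82.6, 116 and 154 CPM in non-responders and at 68.8, 93 and 112 CPM in IgG controls. Its log2 fold change was 0.53 ± 0.22 against non-responders (adjusted p = 0.103 in edgeR's test) and 0.06 for Itgam (95% interval -0.45 to 0.57). Gm49368 shares 68.7% of the exon bases of Itgam and held 19 to 43 counts, beside 2257 to 7249 for Itgam. Cd93, a surface protein once described as a C1q receptor, was at 65.4 and 59.2 CPM in the responders, at 29, 47.8 and 64.4 CPM in non-responders and at 25.8, 51.6 and 73.2 CPM in IgG controls. Vsig4, a receptor of C3b on resident macrophages, was at 3.99 and 0.9 CPM in the responders and from 0.0305 to 2.26 CPM in the others, and its wide interval, -0.85 to 3.84, leaves the direction unresolved.

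Against the IgG controls, 15 of 30 members were higher in responders and 0 were lower in edgeR's test, beside 17.7% and 5.17% of all genes. These were the 14 members above and Itgb2, with a log2 fold change of 0.90 ± 0.20 (adjusted p = 0.00344), and Itgb2 lost the call without responder replicate 16. With a log2 fold change above 1 required as well, 13 members were higher and 0 lower, against 14.3% and 0.641% of all genes. The median log2 fold change was 0.91 over the members and -0.02 over all genes. In 15 members the responder values exceeded all 8 IgG controls, against 19.3% of all genes, and in 0 they fell short of all 8, against 9.67%. The largest values were 4.69 for Cd55 (adjusted p = 2.62e-07), 4.57 for Clu (1.57e-05), 3.92 for C6 (0.00505), 3.89 for C4b (0.000768), 3.83 for Cfi (0.00359) and 3.66 for C3 (0.000236). Some of these calls were lost without responder replicate 15. The log2 fold changes were then 3.87 for Cd55, 3.47 for Clu, 2.77 for C6, 2.19 for C4b, 2.58 for Cfi and 3.03 for C3. In exact permutation tests of single members over tumors (two-sided, 2 against 8), all 15 gave p = 0.0222, the smallest p that this design allows. Against the 6 non-responders, 13 of the 14 members gave the smallest possible exact p of 0.0357, and Serping1 gave 0.0714. These members were taken from edgeR's calls on the same tumors. For values that do not overlap, the smallest exact p follows almost of itself, so that these p-values add no support. Both comparisons share the same 2 responders, so that they are not independent of each other.

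No member passed between non-responders and IgG controls or between all aPD-1 tumors and IgG controls. In the first, 0 of 30 members and 0% of all genes passed in either direction in edgeR's test, and 0 members were higher with DESeq2. In 0 members did the groups lie apart, beside 0.0164% of all genes above and 0.0219% below. At an unadjusted p below 0.05 there were 4 members (Itgb2, C1ra, C1s1 and Cfb, all higher in non-responders), against 3.8% of all genes. The member values were positive in 26 of 30 cases, with a median log2 fold change of 0.27, while 48.7% of all genes were positive, with a median of -0.01. C1ra had a value of 0.40 (95% interval 0.04 to 0.75), C3 of 0.35 (-0.66 to 1.35) and Clu of -0.74 (-1.74 to 0.26). The second comparison is the randomized one, in which 0 of 29 members and 0% of 15775 genes passed, and 0 members were higher with DESeq2 (Cfi was not tested in it because of low counts). The 2 treatments lay apart in 0 members and in 0.0164% of all genes. Here 14 members had an unadjusted p below 0.05, all higher with aPD-1, against 11.4% of all genes. The smallest adjusted p of a member was 0.224, for Cd55, at a log2 fold change of 2.92 ± 0.83. C3 stood at 2.06 ± 0.73 (adjusted p = 0.299), and 4 of the 8 aPD-1 tumors lay above the IgG median for it. For C1ra, C1s1, Cfb and Cfp, 7 of the 8 aPD-1 tumors lay above the IgG median. These members were picked for that count, the share of all genes that reach it was not computed, and none of them passed. The mean over aPD-1 tumors includes the 2 responders, and without replicate 15 the value of C3 was 1.20 (adjusted p = 0.843) and that of Cd55 was 1.71 (adjusted p = 0.602).

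The balance of the summed member signal differed between the groups. The summed level of the 32 members was 4333 and 2810.0 CPM in responder replicates 15 and 16, 1522 to 2432 CPM in non-responders and 1330.0 to 1925 CPM in IgG controls. The 3 C1q chains made up 43.9 to 57.2% of this sum in the 14 non-responder and IgG tumors, but 22.3 and 32.5% in the responders. C2, C3, C4b and Cfb made up 4.21 to 13.4% in those 14 tumors and 36.5 and 24.7% in the responders. Accordingly, the ratio of C3 to C1qb was 0.0476 to 0.297 outside the responders and 2.08 and 1.05 in them. That of C4b to C3 was 0.222 to 0.908 outside the responders and 0.714 and 0.271 in them, and thus overlapped.

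Within groups, the same tumors tended to be high for several members. Responder replicate 15 stood above replicate 16 in 23 of 30 members, against 52.5% of all genes, and in all 14 members that passed, by 1.15-fold (Vtn) to 5.19-fold (C4b). Non-responder replicates 11 and 13 were the 2 highest of their group in 17 of 30 members, among them C3, C4b, C2, Cfb, C1s1, C1ra, Serping1, C6 and Cd55, against 11.8% of all genes. C3, for example, was at 124 and 115 CPM in these tumors and from 19.96 to 33.1 CPM in the other non-responders. IgG replicates 2, 6 and 8 were the 3 highest of their group in 8 of 30 members, C3, C4b, C2, C6, Serping1, Cd55, Clu and Cd93, against 3.31% of all genes. C3 was at 73.6, 78.6 and 69.8 CPM in these tumors and from 19 to 41.7 CPM in the other IgG controls. These tumors were picked from the member values themselves, so that the counts are a description, and members share the libraries. Over the 14 non-responder and IgG tumors, the median fold between highest and lowest tumor was 2.66 for the members and 2.27 for all genes.

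**Figure D4:**
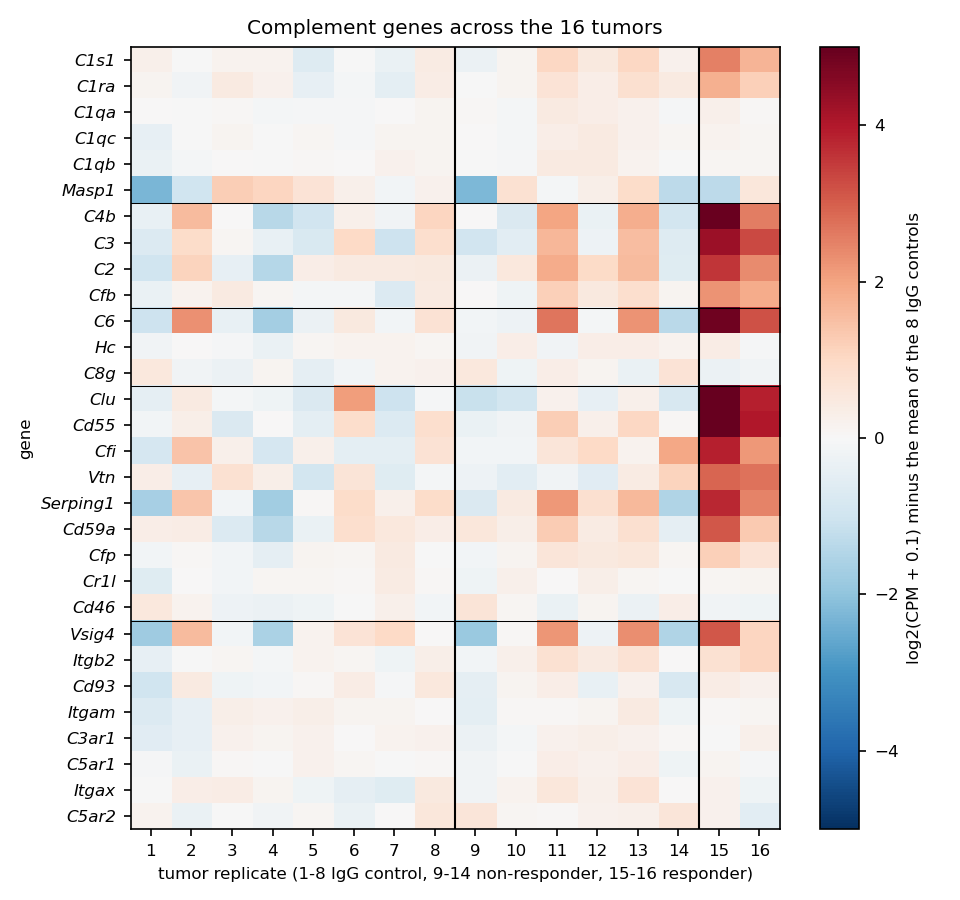
Log2(CPM + 0.1) of the 30 tested members (rows, by role) in each tumor (columns, replicates 1 to 16), minus the mean of the 8 IgG controls for each gene. Red is higher and blue is lower, and the colour scale ends at 5 in either direction. Columns 15 and 16 are red for the 4 convertase components and for the regulators other than Cfp, Cr1l and Cd46. Columns 11 and 13 are paler red for C4b, C3, C2, Cfb, C6 and Serping1, and the C1q rows stay pale throughout.

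Complement genes outside the members were read from a second list. Of 33 listed genes, 17 were tested. Of these, 6 were higher and 0 lower in responders than in non-responders, beside 15.4% and 4.34% of all genes. The median log2 fold change was 1.92. Cr2, complement receptor 2 of B cells and follicular dendritic cells, was at 162 and 29.7 CPM in responder replicates 15 and 16 and at most 0.959 CPM in the others (log2 fold change 7.98, adjusted p = 5.3e-07 in edgeR's test). Cfd, the factor D made by fat cells, was at 1106 and 191 CPM in the responders and at most 64.5 CPM in the others (5.41, adjusted p = 0.00551). The other 4 were Csmd1 (5.48), Colec11 (3.40), Thbd (2.65) and C1s2 (2.39). Csmd1, Colec11 and C1s2 had at most 123, 38 and 31 counts in a tumor. Outside the responders they were at most 0.152, 0.273 and 0.304 CPM. The low-count filter can be met by 2 tumors, the size of the smallest group, and these genes met it only through the responders. Their calls, and their part in the median of 1.92, therefore give no support. C4a did not pass (0.59 ± 0.50, adjusted p = 0.477). Against IgG controls 8 of the 17 were higher and 1, Phb, was lower, beside 17.7% and 5.17% of all genes.

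Markers of other cells moved with the responders, in a pattern that differed by list. Counts of genes are for responders against non-responders, where 15.4% of all genes were higher. The B cell list was higher in 8 of 8 genes, with a summed level of 1287 and 343 CPM in responder replicates 15 and 16, at most 7.42 CPM in non-responders and at most 8.39 CPM in IgG controls. The lymph node stroma and high endothelial venule list was higher in 6 of 6, with 423 and 130.5 CPM in the responders. It was at most 4.58 CPM elsewhere, and its gene Chst4 had a median of 0 CPM in both larger groups. Chst4, Madcam1 and Ccl19 were at most 0.13, 0.262 and 0.329 CPM elsewhere and met the low-count filter only through the responders. The same held for Blk of the B cell list, at most 0.305 CPM elsewhere. The calls of these genes give no support. The adipocyte list was higher in 5 of 5, with 1180.0 and 213 CPM in the responders, 19.3 to 50.2 CPM in non-responders and 16 to 79.6 CPM in IgG controls. For these 3 lists replicate 15 stood 3.75-fold, 3.24-fold and 5.54-fold above replicate 16, and the median of the 14 members that passed was 2.37-fold. The same ratio was 2.22 for colon epithelium, 1.85 for blood endothelium, 1.58 for hepatocyte, 1.19 for dendritic cell and 1.11 for fibroblast genes. It was 1.06 for T cell, 0.884 for macrophage and monocyte, 0.693 for interferon gamma target, 0.44 for neutrophil and 0.205 for muscle genes. The T cell list was higher in 8 of 8, with 252 and 239 CPM in the responders, 12.8 to 35 CPM in non-responders and 8.16 to 30.9 CPM in IgG controls. Responders were defined by CD8 T cell staining of these tumors, so that the result of this list follows from the grouping. The dendritic cell list was higher in 6 of 6, with 90.7 and 76.4 CPM in the responders and at most 20.3 CPM elsewhere. Blood endothelium was higher in 3 of 6, with 359 and 194 CPM in the responders and 43.3 to 181.5 CPM elsewhere.

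The lists of macrophages and fibroblasts, known sources of C1q and of stromal complement, and of further cells are given in the same way. Of all genes, 15.4% were higher than in non-responders and 17.7% were higher than in IgG controls. Against non-responders, the counts of the macrophage, fibroblast and interferon gamma target lists lie near that share. The macrophage and monocyte list was higher in 2 of 10 genes (5 of 10 against IgG controls), with 2100.0 and 2376 CPM in responder replicates 15 and 16, 817 to 1885 CPM in non-responders and 784 to 1565 CPM in IgG controls, so that both responders lay above the other 14 tumors. The fibroblast list was higher in 1 of 8, with 7774 and 7004 CPM in the responders, 5812 to 7969 CPM in non-responders and 5522 to 8037 CPM in IgG controls. Col3a1 and Dcn made up most of that sum, and other genes of the list differed. Lum, which passed, was at 174 and 152 CPM in the responders and at most 86.6 CPM elsewhere. Col1a1 was at 586 and 265 CPM in the responders, against medians of 123.5 CPM (non-responders) and 93.5 CPM (IgG), and did not pass (adjusted p = 0.172 in edgeR's test). Col1a2 was at 982 and 353 CPM, with medians of 180.1 and 108 CPM, and did not pass (adjusted p = 0.227). Both collagen genes were highest among non-responders in replicates 11 and 13 and among IgG controls in replicates 2 and 8, as C4b, C2, C6 and Serping1 were. C3, Cd55 and Clu were instead highest among IgG controls in replicate 6, where Col1a1 was at 74.5 CPM. The order was not particular to fibroblast genes, since the blood endothelium list was highest in the same replicates 11, 13, 2 and 8. Neutrophil genes were higher in 2 of 6 (5 of 6 against IgG controls), with 15.9 and 36.2 CPM in the responders and 5.05 to 13.6 CPM elsewhere. Of these genes, Cxcr2 and Retnlg were at most 0.33 and 0.246 CPM elsewhere and met the low-count filter only through the responders. Interferon gamma target genes were higher in 1 of 8 (4 of 8 against IgG controls), with 1865 and 2690.0 CPM in the responders and 1145 to 2707 CPM elsewhere. Epithelial genes were higher in 4 of 6 tested, of 8 listed (5 of 6 against IgG controls). Hepatocyte and muscle genes passed in 0 of 4 and 0 of 5. The hepatocyte list was high in non-responder replicate 14, at 100.8 CPM, beside 1.52 to 2.39 CPM in the responders, and the muscle list in IgG replicate 6, at 1670.0 CPM. The part of these cells in the member values was not tested.

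**Figure D5:**
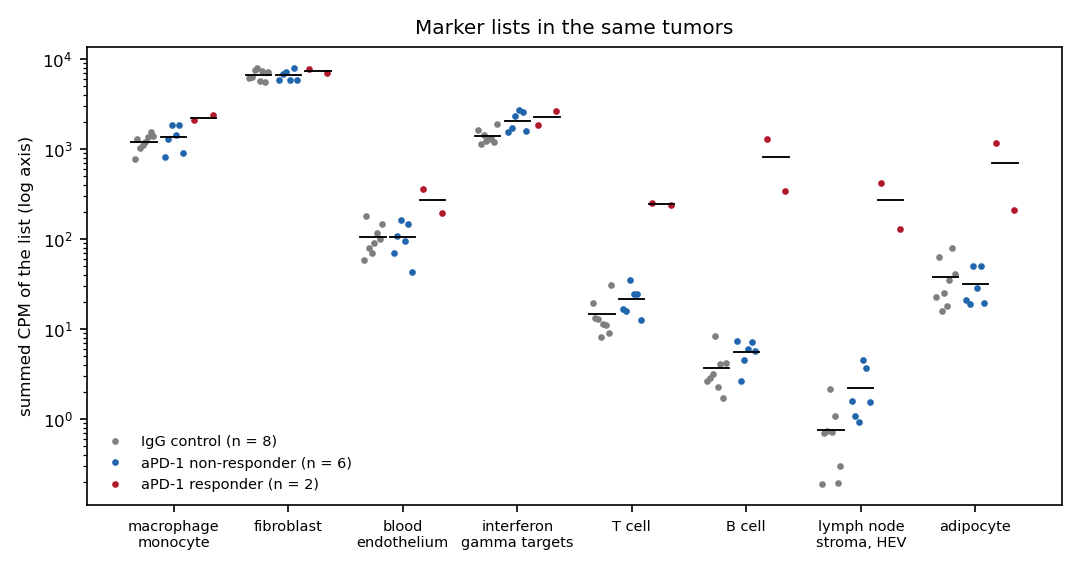
Summed CPM of 8 marker lists on a log axis, with 1 point per tumor and a bar at the mean of each group (8 IgG controls, 6 non-responders and 2 responders; HEV, high endothelial venule). Both responders lie far above all other tumors for the T cell, B cell, lymph node and adipocyte lists, slightly above them for the macrophage list, and within their range for the fibroblast and interferon gamma target lists.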

How the data were processed

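Bulk RNA-seq of 16 MC38 tumors, each from another mouse, was used. Per the submitters' notes and methods, STAR 2.6 placed the reads on GRCm38 and RSEM 1.3.0 quantified Ensembl 91 genes, and the authors deposited the resulting expected counts without normalization. These estimated counts divide reads shared by similar genes, and 7.84% of the values were not whole. The strand setting of the counting is not given in the sources used here. The values were rounded, and 92 spike-in entries were left out of 53557 rows, which left 53465 genes. Symbols, coordinates and exon lengths came from GENCODE M21, which matched 53360 identifiers. No 2 tumors were copies of one library (chi-square of at least 16.5 per degree of freedom in each of 120 pairs).

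Counts were tested in R 4.3.3 with edgeR 4.0.16 (TMM scaling, the filter for low counts, robust quasi-likelihood test), with Benjamini-Hochberg adjustment over all genes tested. One fit of 3 groups covered 18251 genes, and a separate fit of the 2 treatments covered 15775. A gene passed at an adjusted p below 0.05. A second rule also asked for a log2 fold change above 1 in size. Intervals of fold changes are 95% intervals from this fit. Levels are CPM on the TMM library size. The steps were tested on simulated counts. Exact permutation tests, two-sided, compared mean log2 CPM with a prior count of 2. Tables were handled in Python 3.11.15 with numpy 2.4.6 and pandas 2.3.3.

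Members, roles, marker lists and other complement genes were chosen with earlier results of these data known. Members with an adjusted p below 0.05 in any comparison, or with a mean of at least 20 CPM, are given by tumor, and the others by range or level. Other complement genes are named where they passed both rules between responders and non-responders, and Cfd, C4a and Cr2 in any case. One gene that the rule fixes by name is not reported here. Promoter windows of RefSeq genes on GRCm38.p6 run from 250 bases before to 50 bases after a start.

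The alternatives were DESeq2 1.42.0, median-of-ratios size factors, all genes without the filter, a stricter filter (8 or more tumors with 10 or more counts), fits that held the compared groups alone, and each tumor left out in turn. A fit without the 3 tumors of highest mitochondrial share was added after the data were seen. Spatial transcriptomics and immunohistochemistry of these tumors were not analysed here.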

Additional observations from a re-analysis of the deposited data

Results flagged for a closer look

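C1qc stood out in 1 tumor of the IgG controls. IgG replicate 1 was at 172 CPM, while the other 7 IgG controls lay between 217 and 251 CPM, and on the log2 CPM scale the gap to the nearest tumor was 0.61 of the range of the group. Over 60 groups of members, 1 was set apart in this way, and chance sets apart about 1 in 20, or 3. IgG replicate 1 also had the highest mitochondrial share, at 7.6% of counts, and was the lowest IgG control in 10 of 30 members and in 36.2% of all genes. The part of that share in the value was not tested.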

How the results depend on the processing

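No paired analysis was possible because the numbers in the tumor labels run from 1 to 16 across the groups and no number is shared. DESeq2 and median-of-ratios size factors gave the same 14 members against non-responders and the same 15 against IgG controls, and 0 members passed between non-responders or all aPD-1 tumors and IgG controls under every alternative run. Against non-responders, 11 members passed without a filter on low counts, in fits that held the compared groups alone and without the 3 tumors of highest mitochondrial share, each time without Serping1, C6 and Cfp, and 13 with the stricter filter, where Cfi was not tested. Leaving out 1 tumor gave 3 to 14 members higher than in non-responders (3 to 13 with a log2 fold change above 1). Against IgG controls it gave 8 to 15 (7 to 15). Each lowest count came without responder replicate 15. The highest count against non-responders came without responder replicate 16, where Serping1 was not called. It thus includes a member outside the 14 that passed with all tumors. Fits without replicate 15 or 16 leave 1 responder, and the low-count filter can then be met by 1 tumor. The ends of the ranges that come from these fits give no support.

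Several members that did not pass changed sign between settings, most of them near 0, while Masp1 and Vsig4 ranged more widely. In responder replicates 15 and 16, Masp1 was at 1.09 and 4.28 CPM and Vsig4 at 3.99 and 0.9 CPM. Without a filter on low counts the log2 fold change against non-responders was -0.03 for C3ar1, -0.06 for Hc, -0.02 for Itgam and -0.05 for Cr1l, and against IgG controls -0.02 for Itgam and -0.03 for C5ar1. In the fit of the compared groups alone Hc was at -0.02, and with the stricter filter C1qa was at 0. Without the 3 tumors of highest mitochondrial share the values against non-responders were -0.09 for C3ar1, -0.11 for Hc, -0.15 for Itgam and -0.11 for Cr1l, and against IgG controls -0.03 for C3ar1, -0.08 for Itgam, -0.03 for Cr1l, -0.02 for C5ar1 and -0.01 for C1qb. When 1 tumor was left out, values against non-responders ranged from -1.51 to 0.44 for Masp1, -0.15 to 0.02 for C1qc, -0.14 to 0.10 for C3ar1, -0.28 to 0.15 for Hc, -0.19 to 0.05 for C1qa, -0.02 to 0.16 for Itgam, -0.03 to 0.08 for Cr1l and 0 to 2.16 for Vsig4. Against IgG controls they ranged from -1.75 to 0.19 for Masp1, -0.64 to 0.13 for C5ar2, -0.09 to 0.14 for C3ar1, -0.14 to 0.29 for Hc, -0.03 to 0.18 for C1qa, -0.08 to 0.11 for Itgam, -0.04 to 0.16 for Cr1l, -0.13 to 0.07 for C5ar1, -0.01 to 0.12 for C1qb and -0.34 to 0.11 for Itgax. The cause was not tested.

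With 2 responders, most calls against non-responders depend on replicate 15. C7, Masp2 and Cfi had few counts, so that small differences in them were not detectable at this depth. Section content differed between tumors, and cell composition and expression per cell cannot be told apart.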
